A study of Mus musculus with 48 samples.

Results

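The livers compared here came from mice given LX-A2003 or LX-A1656, a pair of modified gapmer antisense oligonucleotides against Scarb1, and were taken 72 h after the first administration. Each compound had 4 libraries at that time, replicates 1 to 4 of each group by their titles, which makes 8 of the 48 libraries of the study. The whole study holds 12 groups: PBS, LX-A1656, LX-A2003 and a further gapmer against the same transcript, LX-A3928, each at 24, 72 and 168 h. Both groups are livers of animals that received an oligonucleotide, and the 4 PBS libraries of the same time give the background level beside each value. Strain, sex, age, dose and the number of administrations are absent from the labels, so the comparison is matched for time and target, and whether it is matched for dose is unknown. Nothing in the labels says whether each replicate is its own animal. The p-values therefore describe the variation among these libraries, which may be technical.

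A gapmer is a short oligonucleotide with a central stretch of DNA between modified ends. The DNA stretch pairs with a transcript and directs the nuclease RNase H1 to cut it in the nucleus and the cytoplasm, and transcripts other than the intended one can be cut where they pair well enough. Scarb1 encodes the scavenger receptor that takes up cholesteryl ester from high-density lipoprotein in hepatocytes and in steroid-producing tissue. Some gapmers injure hepatocytes, and stressed hepatocytes are known to lower the genes of their metabolic work and to raise keratins, immediate early genes and p53 targets.

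RNA of whole liver was measured with a targeted amplicon kit for the mouse transcriptome. The deposited table gives a count for 23930 genes, of which 12672 passed the filter on low counts and were tested. The 8 libraries held between 10004333 and 16230022 counts. Levels are given in CPM (counts scaled to a common library total) after scaling of the library totals, and differences as log2 fold changes of LX-A2003 over LX-A1656 with their standard errors, so that a positive value is a higher level with LX-A2003. A gene was called at a Benjamini-Hochberg adjusted p below 0.05 in edgeR's quasi-likelihood test. One amplicon per gene does not allow levels to be compared between genes. In whole liver, fewer cells of a type and less RNA per cell cannot be told apart.

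Scarb1 itself (chromosome 5, 125277087 to 125341094, minus strand, GRCm38) was at 315, 306, 293 and 304 CPM in PBS livers. It was at 7.69, 5.40, 4.47 and 4.79 CPM with LX-A2003. With LX-A1656 it was at 4.08, 3.36, 6.21 and 4.02 CPM. All 8 treated libraries lay far below all 4 PBS libraries, and the treated groups overlapped. The difference between the compounds was 0.32 ± 0.253 (SE) on the log2 scale, with a 95% interval from -0.19 to 0.83 (adjusted p = 0.346), and the gene was not called. Rnaseh1, the nuclease that gapmers depend on, also was not called, with a 95% interval from -0.71 to 0.17.

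While Scarb1 was not called at 72 h, although it was at 24 h, 4554 genes (35.9% of those tested) differed between the compounds at 72 h. LX-A2003 livers were higher for 2278 genes (18%) and lower for 2276 (18%), and 1978 of the called genes differed by at least 1 on the log2 scale, 927 of them higher and 1051 lower. The split rests on the scaling: with library totals alone, 5071 genes were called, 1421 higher and 3650 lower, and the median over all tested genes moved from -0.03 to -0.26 on the log2 scale. The scaling factors were 0.924 to 0.937 in the LX-A2003 libraries and 1.048 to 1.151 in the LX-A1656 libraries. Replicate 1 stood apart from the other 3 libraries in both groups: the chi-square of its counts per degree of freedom was 51.9 to 72.6 against the other LX-A1656 libraries, where those gave 12.3 to 22.0 among themselves, and 21.0 to 25.5 against 6.74 to 9.13 with LX-A2003. No pair differed as little as sampling noise. Without both replicates 1 the test called 3447 genes, of which 3367 were among the 4554, all 3367 in the same direction. The comparison of all tested genes plots this spread.

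**Figure D1:**
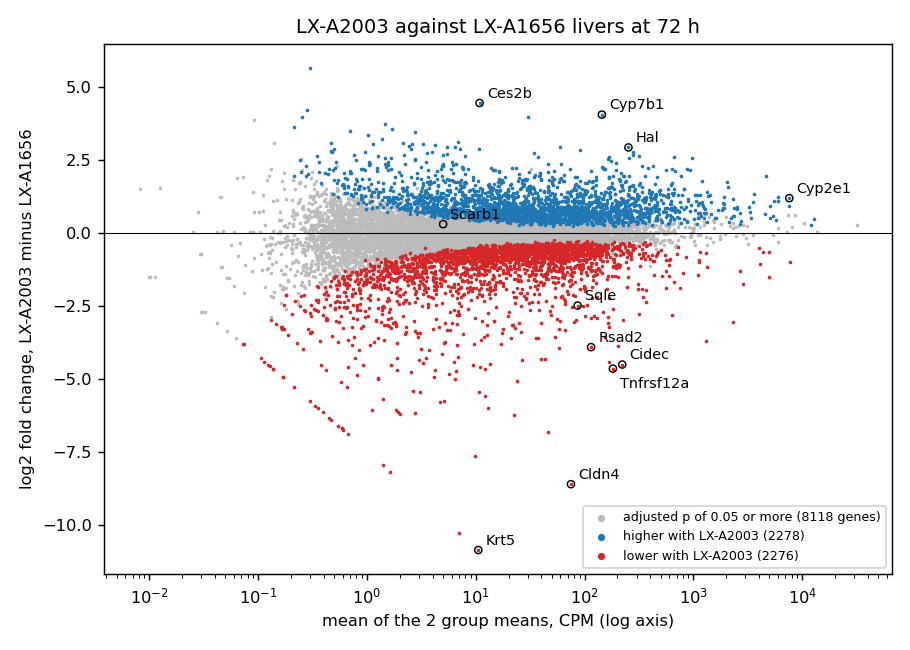
Log2 fold change of LX-A2003 over LX-A1656 at 72 h (vertical axis) against the mean of the 2 group means in CPM (horizontal log axis), 1 point per tested gene, with 2278 called higher in blue, 2276 called lower in red and genes not called in grey. Scarb1 lies close to 0, and the lower calls reach further from 0 than the higher calls, down to Krt5, which had no count with LX-A2003.

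Set beside PBS, the LX-A2003 mean lay between those of PBS and LX-A1656 for 2976 of the 4554 called genes (65.3%). PBS lay between the compounds for 1505 (33%), and LX-A1656 between PBS and LX-A2003 for 73 (1.6%). This order is one of means without a test, among genes chosen because the compounds differed. A gene with LX-A2003 at the PBS level falls on either side of PBS by small differences. Slpi counts as between at a mean of 0.836 CPM with LX-A2003 against 0.751 CPM in PBS (adjusted p = 0.913 in edgeR's test). On the first axis of a principal component analysis of the 12 libraries at 72 h, which held 61.3% of the variance, the LX-A2003 libraries lay at 11.74 to 18.4, the PBS libraries at 53.62 to 55.4 and the LX-A1656 libraries at -89.24 to -52.64. The groups did not overlap on that axis, and LX-A2003 was in the middle. On the second axis, with 10.2% of the variance, LX-A2003 lay apart from both other groups, at -31.11 to -21.57. PBS libraries lay there at 17.65 to 22.89 and LX-A1656 libraries at -6.536 to 23.75.

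The 12 genes chosen for the higher side include several enzymes. Cyp7b1, an oxysterol 7-alpha-hydroxylase of the alternative bile acid pathway, was at 187, 324, 266 and 310 CPM with LX-A2003 and at 9.04, 25.2, 12.9 and 17.7 CPM with LX-A1656. PBS livers had 296, 378, 404 and 523 CPM, so that LX-A2003 reached into the PBS range while every LX-A1656 library lay below it. The log2 difference was 4.07 ± 0.309 (adjusted p = 3.31e-14). Hal, the first enzyme of histidine breakdown, stood at 468, 433, 401 and 487 CPM with LX-A2003 against 29.6, 91.9, 56.5 and 54.4 CPM with LX-A1656. Both groups were below the 739 to 911 CPM of PBS livers, without overlap, and differed by 2.94 ± 0.206 (adjusted p = 1.58e-15). Acsl1, which activates long-chain fatty acids, followed the same order, with 453, 491, 461 and 524 CPM, then 45.4, 115, 57.6 and 62.7 CPM, and 840 to 1135 CPM in PBS. Its difference was 2.78 ± 0.175 (adjusted p = 4.59e-17).

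Other genes at the top of the higher side had wider spread. Cyp26a1, which degrades retinoic acid, was at 67.8, 17.2, 16.1 and 127 CPM with LX-A2003 and at 1.13, 7.91, 1.14 and 4.18 CPM with LX-A1656, and PBS livers ran from 17.8 to 189 CPM. Ces2b, a carboxylesterase, had the largest difference of the 12, 4.47 ± 0.658 (adjusted p = 6.13e-07), with 2.82, 31.1, 15.1 and 33.9 CPM with LX-A2003 and 0.174, 1.45, 0.327 and 1.74 CPM with LX-A1656. Of these, LX-A2003 replicate 1 lay among the PBS libraries (1.95 to 7.34 CPM) and the other 3 lay above them. The remaining genes of this set were Pitx3 (3.14), Cmah (2.97), Mmd2 (2.95), 1700018L02Rik (2.91), Nnmt (2.88), Sds (2.85) and Scnn1a (2.77), given as log2 differences. In each of the 12 the groups did not overlap, a condition of their choice.

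All 20 tested genes of the urea cycle and amino acid breakdown list were called higher with LX-A2003, where 18% of all tested genes were. The counts of each list and marker set below stand beside that share, 18% in each direction. Their median difference was 1.46, beside -0.03 over all genes. Glul, which makes glutamine, was at 336 to 409 CPM with LX-A2003, 87.5 to 117 CPM with LX-A1656 and 322 to 416 CPM in PBS. Uroc1, the next step of histidine breakdown after Hal, differed by 1.47 ± 0.152.

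Gluconeogenesis and glycogen genes were called higher in 13 of 14, with a median of 1.26, and none was lower. The count was 10 with library totals alone and 12 without both replicates 1. G6pc, the last step of glucose release, was at 437, 309, 397 and 621 CPM with LX-A2003 and at 36.7, 95.8, 102 and 60.1 CPM with LX-A1656, against 451 to 698 CPM in PBS, a difference of 2.58 ± 0.353 (adjusted p = 1.17e-07). Slc2a2, the hepatocyte glucose transporter, differed by 1.78 ± 0.164, Fbp1 by 1.65 ± 0.172 and the glycogen phosphorylase Pygl by 1.00 ± 0.119. Pygl in LX-A2003 livers (343 to 381 CPM) lay within or just above the PBS libraries (330 to 369 CPM), and in LX-A1656 livers it was at 146 to 205 CPM.

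Bile acid genes were called higher in 10 of 16 and lower in 2, with a median of 0.70. These counts were 7 and 3 with library totals alone, and 7 and 2 without both replicates 1. Slc10a1, which takes up bile salts from blood, was at 866, 1256, 1130 and 1172 CPM with LX-A2003 and at 118, 403, 198 and 275 CPM with LX-A1656. PBS livers had 1150 to 1308 CPM, so 3 of the 4 LX-A2003 libraries lay in or close to that range. The difference was 2.15 ± 0.206 (adjusted p = 1.42e-11). The organic anion transporter Slco1b2 differed by 2.10 ± 0.248 and the bile salt export pump Abcb11 by 1.66 ± 0.216. Abcb4 and Abcc3 were the 2 lower genes; members named only to complete such a count were picked after their values were seen.

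Secreted proteins of the hepatocyte were called higher in 16 of 19 with a median of 0.75, among them Plg (plasminogen, 0.92 ± 0.133) and Igfals (the carrier subunit of insulin-like growth factors, 1.93 ± 0.259). Xenobiotic metabolism was higher in 11 of 18 and lower in 1, which was Cyp2b10, with a median of 0.61, and with library totals alone in 8 and 3. Cyp2e1, an abundant cytochrome P450, stood at 10484, 9440, 11359 and 11187 CPM with LX-A2003 and at 3872, 6682, 3322 and 4498 CPM with LX-A1656, and PBS livers had 10071 to 13216 CPM. Fatty acid oxidation was higher in 11 of 19 and lower in 2 (Cyp4a14 and Pdk4), with a median of 0.51, and with library totals alone in 8 and 4. Its regulator Ppara was at 309 to 498 CPM with LX-A2003, 118 to 174 CPM with LX-A1656 and 247 to 465 CPM in PBS.

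Further lists of liver function were divided or in part called. Respiratory chain subunits were higher in 16 of 25 with a median of 0.44, for example Atp5a1 by 0.55 ± 0.0968, and this count was 6 with library totals alone. Liver transcription factors were higher in 8 of 17 with none lower, led by Prox1 (1.34 ± 0.169). Chaperones of the endoplasmic reticulum were higher in 8 of 18 with none lower, Herpud1 by 1.24 ± 0.2. Clock genes were higher in 7 of 15 and lower in 2 (Per1 and Bhlhe40), with a median of 0.80: the repressor Nr1d1 differed by 1.59 ± 0.24, the output factor Hlf by 2.21 ± 0.244, and Per1 by -2.54 ± 0.459. Acute phase genes were called in both directions, with 8 of 21 higher and 5 (Saa2, Saa3, Hpx, Lcn2 and Hamp) lower. The share called lower was close to the 18% of all tested genes called lower. Fga, a fibrinogen chain, was higher by 1.26 ± 0.159, with every LX-A2003 library (8047 to 8640 CPM) above the PBS range of 5452 to 7066 CPM and every LX-A1656 library (2300 to 4452 CPM) below it. The plot of gene lists gives these counts together.

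**Figure D2:**
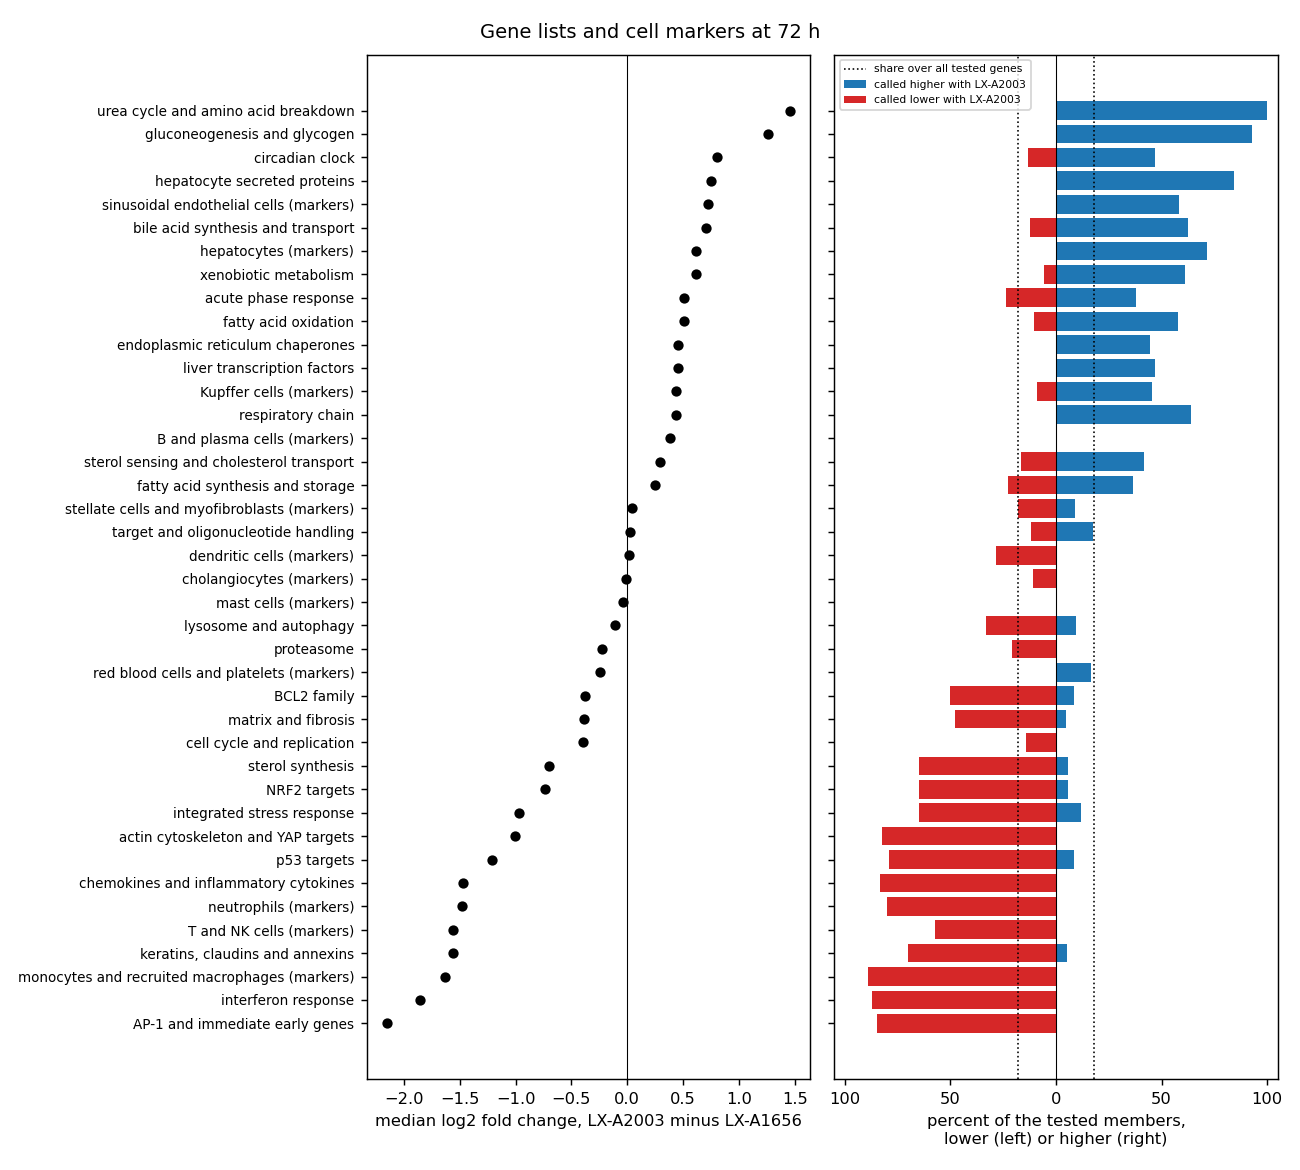
Gene lists and cell markers at 72 h, ordered by the median log2 fold change of LX-A2003 over LX-A1656 (left panel), with the percent of tested members called higher (blue, to the right) or lower (red, to the left) in the right panel and dotted lines at the 18% of all tested genes called in each direction. The urea cycle and amino acid list is at the top with all 20 members higher, and the immediate early and interferon lists are at the bottom with medians of -2.15 and -1.86.

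Genes of cholesterol synthesis went the other way. Of 17 tested members 11 were called lower with LX-A2003 and 1, Ebp, higher, with a median of -0.70; 18% of all genes were called lower. Sqle, squalene epoxidase, was at 38.1, 26.9, 21.4 and 19.2 CPM with LX-A2003 and at 161, 157, 111 and 154 CPM with LX-A1656. PBS livers had 0.698 to 1.32 CPM, so both groups lay above PBS, LX-A1656 further, and the 3 groups did not overlap. The difference between the compounds was -2.47 ± 0.26 (adjusted p = 1.9e-10). Hmgcs1, an early enzyme of the pathway, was at 329, 329, 361 and 294 CPM against 566, 1634, 1189 and 1372 CPM, with 133 to 168 CPM in PBS, and differed by -1.86 ± 0.206. Ebp, a sterol isomerase later in the pathway, was at 378 to 536 CPM with LX-A2003 and 154 to 210 CPM with LX-A1656, a difference of 1.21 ± 0.176 in the opposite direction.

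Insig1, a target of the same sterol-regulated factors chosen after its values were seen, was not called, and the 95% interval of its difference ran from -0.53 to 0.42. In the list of sterol sensing and cholesterol transport as a whole, 10 of 24 were higher and 4 lower, among them Srebf2, Abcg1 and Pltp, with library totals alone 7 and 7 of them, and without both replicates 1, 8 and 1. The exporters Abcg5 and Abcg8, which pass sterols into bile, differed by 2.15 ± 0.199 and 2.20 ± 0.203, and Abca1, which loads lipid onto apolipoprotein A-I, by 1.13 ± 0.165.

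The window before the Hmgcs1 start is shown because this gene carried the sterol regulatory letters TCACCCCAC (searched on both strands), and it was the only one of the 16 windows of the sterol synthesis list to do so. The letters were in 0.446% of the windows of genes called lower, in 0.888% of those called higher and in 0.658% of the 12301 windows of all tested genes, each running from 250 bases before to 50 bases after a RefSeq start (GRCm38.p6). The stretch printed is the 250 bases before the start, 5′ to 3′ on the plus strand, chr13:119690101-119690350, with the match in capitals; a match is a description of the letters only.
Hmgcs1: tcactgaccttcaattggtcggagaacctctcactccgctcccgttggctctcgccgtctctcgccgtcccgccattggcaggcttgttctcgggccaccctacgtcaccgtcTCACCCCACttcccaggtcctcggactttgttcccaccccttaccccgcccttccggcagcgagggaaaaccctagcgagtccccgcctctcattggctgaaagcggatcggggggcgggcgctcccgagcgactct

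Lipid storage and synthesis genes were called in both directions, with 8 of 22 higher and 5 (Scd1, Plin2, Cidec, Cidea and Pnpla3) lower. Of all tested genes 18% were called in each direction, and the share of the list called lower was close to that. Cidea had 1 count over the LX-A2003 group and 17 with LX-A1656, so its value is near the floor and imprecise. With library totals alone 7 of the list were higher and 6 lower. Cidec, a lipid droplet protein that makes droplets grow, was at 18.7, 15.1, 28.7 and 12.6 CPM with LX-A2003 and at 708, 342, 295 and 353 CPM with LX-A1656, against 1.66 to 3.13 CPM in PBS. Every library of LX-A2003 was above PBS and below LX-A1656, and the compounds differed by -4.49 ± 0.314 (adjusted p = 2.6e-15). Plin2, the coat protein of hepatocyte droplets, differed by -1.30 ± 0.185 and the desaturase Scd1 by -1.50 ± 0.239. Mlxipl, the carbohydrate-responsive factor ChREBP, was higher by 1.86 ± 0.286, at 239 to 368 CPM against 45.1 to 120 CPM.

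The lowest genes with LX-A2003 were ones with little or no expression in PBS liver. Krt5, a keratin of basal epithelium, had no count in any LX-A2003 or PBS library and 36.9, 9.09, 18.7 and 19.6 CPM with LX-A1656. Against a floor of 3 counts over the group it was at least 319-fold lower with LX-A2003, and R3hdml, likewise with no count with LX-A2003 and 665 counts with LX-A1656, was at least 212-fold lower. Cldn4, a tight junction protein of epithelia other than the hepatocyte plate, was at 0.541, 0, 0.263 and 0.737 CPM with LX-A2003, close to the 0.110 to 0.241 CPM of PBS, and at 275, 60.6, 145 and 117 CPM with LX-A1656. The difference was -8.59 ± 0.468 (adjusted p = 1.27e-18). The remaining genes of the 12 lowest were Fosl1 (-7.61), the protease inhibitor Slpi (-6.81), Ly6d (-6.23), 5730559C18Rik (-5.97), Gm30692 (-5.73), Ypel4 (-5.58), the urokinase receptor Plaur (-5.42), the macrophage elastase Mmp12 (-5.06) and the nicotinic acid receptor Hcar2 (-4.98). Fosl1 and Gm30692 had 4 and 8 counts over the LX-A2003 group, against 917 and 486 with LX-A1656. Their values are therefore near the floor and imprecise.

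Keratins, claudins and annexins were called lower in 14 of 20 and higher in 1, Cldn1, with a median of -1.56. Tnfrsf12a, the receptor for the cytokine TWEAK, was at 14.9, 11.4, 17.2 and 12.8 CPM with LX-A2003, at 508, 261, 327 and 303 CPM with LX-A1656 and at 8.40 to 11.4 CPM in PBS. It differed by -4.63 ± 0.235 (adjusted p = 6.15e-20). Anxa2, a membrane-binding annexin, was at 12.8 to 18.3 CPM with LX-A2003 and 12.4 to 18 CPM in PBS, and at 442, 155, 313 and 358 CPM with LX-A1656. Anxa5 differed by -2.77 ± 0.157. The actin and YAP list was lower in 14 of 17 with none higher, led by Tpm1 (-1.98 ± 0.122) and Ajuba (-3.56 ± 0.273).

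Immediate early genes were called lower in 17 of 20 and higher in none, with a median of -2.15, and in 13 of 20 without both replicates 1. Jun, a subunit of the AP-1 transcription factor, was at 29.4, 18.4, 38.6 and 43.3 CPM with LX-A2003, at 415, 276, 244 and 273 CPM with LX-A1656 and at 5.65 to 10.7 CPM in PBS. LX-A2003 thus lay above PBS without overlap, and LX-A1656 lay far above both. The compounds differed by -3.22 ± 0.319 (adjusted p = 5.52e-11). Atf3, a stress-induced partner of Jun, was at 3.68 to 5.13 CPM against 43.0 to 56.9 CPM and differed by -3.38 ± 0.211. Klf6 differed by -3.04 ± 0.293 and Mafk by -2.31 ± 0.193.

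The AP-1 letters TGANTCA, searched on both strands, were in 8.12% of the promoter windows of genes called lower with LX-A2003, in 5.73% of those called higher and in 5.61% of all. None of the 18 windows of the immediate early list held them. Cldn4, Plaur and Srxn1 are shown because they are among the genes described here as far lower with LX-A2003 and hold the letters, Cldn4 and Srxn1 at 2 places each. Each stretch is the 250 bases before the RefSeq start (GRCm38.p6), 5′ to 3′ on the strand of the gene, with matches in capitals: chr5:134946935-134947184, minus strand, for Cldn4, chr7:24462233-24462482, plus strand, for Plaur, and chr2:152105274-152105523, plus strand, for Srxn1.
Cldn4: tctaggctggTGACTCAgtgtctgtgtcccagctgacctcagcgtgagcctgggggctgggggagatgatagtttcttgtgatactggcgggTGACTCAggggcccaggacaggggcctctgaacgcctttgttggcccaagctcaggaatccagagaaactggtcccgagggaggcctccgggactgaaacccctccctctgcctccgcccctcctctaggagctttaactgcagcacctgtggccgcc
Plaur: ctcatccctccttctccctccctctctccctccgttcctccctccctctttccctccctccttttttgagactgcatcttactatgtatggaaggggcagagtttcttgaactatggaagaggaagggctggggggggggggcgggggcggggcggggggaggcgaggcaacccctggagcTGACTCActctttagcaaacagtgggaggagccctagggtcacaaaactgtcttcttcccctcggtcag
Srxn1: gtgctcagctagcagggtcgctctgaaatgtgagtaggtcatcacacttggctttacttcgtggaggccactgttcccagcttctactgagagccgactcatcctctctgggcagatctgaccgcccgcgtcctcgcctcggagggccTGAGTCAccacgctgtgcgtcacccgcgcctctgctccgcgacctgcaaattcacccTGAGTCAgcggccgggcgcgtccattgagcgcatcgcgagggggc

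**Figure D3:**
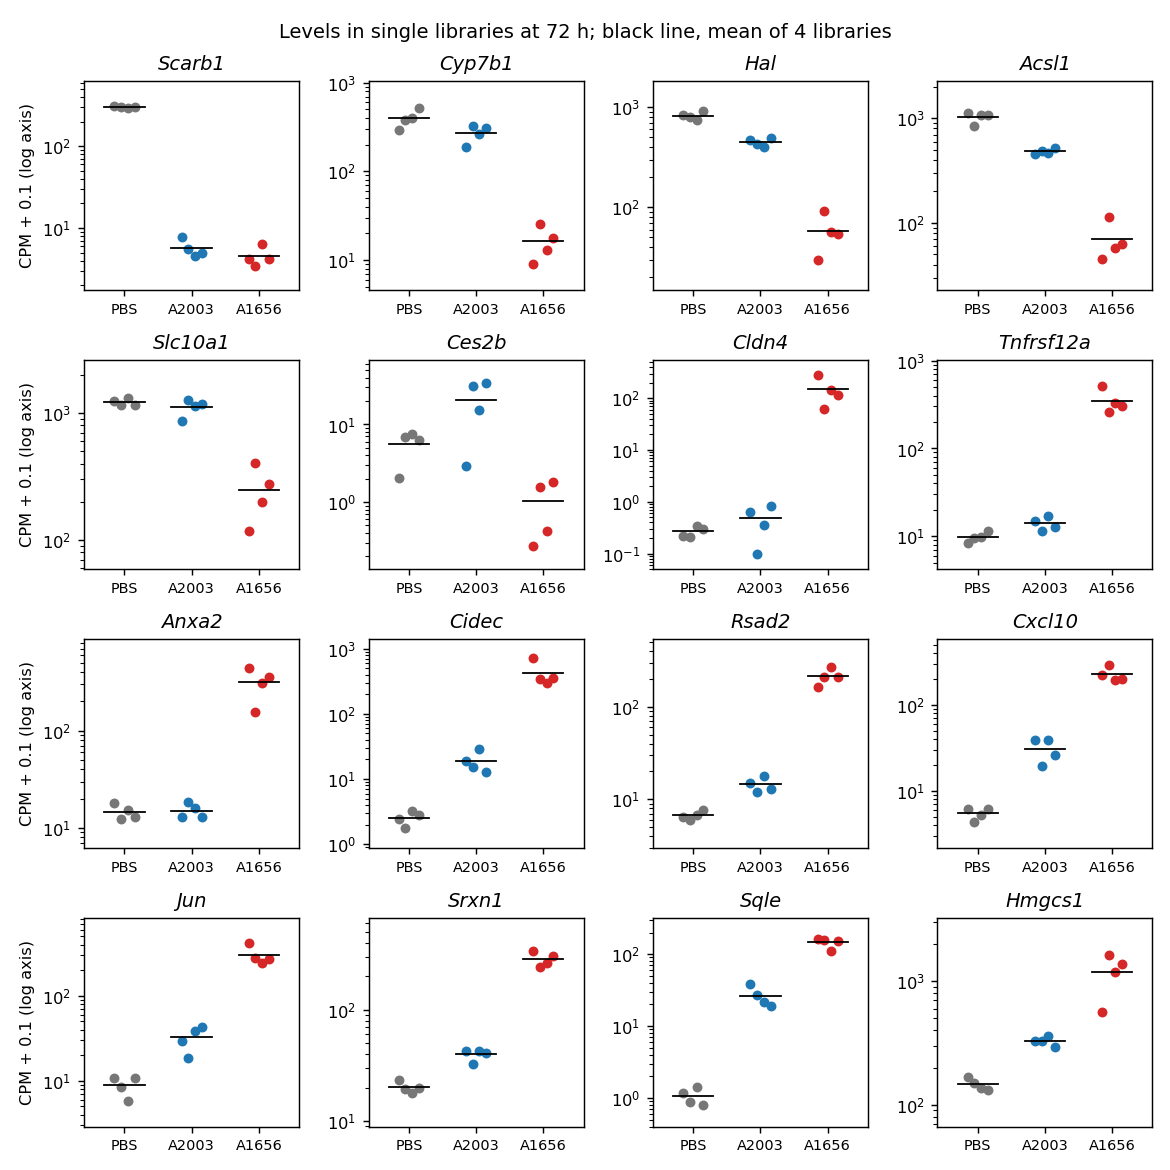
Levels of 16 genes in single libraries at 72 h, in CPM + 0.1 on log axes, for PBS (grey), LX-A2003 (blue) and LX-A1656 (red), with a black line at the mean of 4 libraries. In Slc10a1 and Anxa2 LX-A2003 lies at the PBS level, in Hal, Jun, Cxcl10 and Sqle it lies between PBS and LX-A1656, and in Scarb1 both compounds are low.

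Genes of the interferon response were called lower with LX-A2003 in 20 of 23 and higher in none, with a median of -1.86. Rsad2, the antiviral protein viperin, was at 14.9, 11.8, 18.0 and 12.9 CPM with LX-A2003, at 163, 212, 272 and 212 CPM with LX-A1656 and at 5.85 to 7.58 CPM in PBS. The 3 groups did not overlap, and the compounds differed by -3.89 ± 0.274 (adjusted p = 1.87e-15). Cxcl10, a chemokine induced by interferon, was at 38.9, 19.4, 39.1 and 26.1 CPM, at 222, 296, 194 and 201 CPM and at 4.20 to 6.09 CPM in the same order, and differed by -2.88 ± 0.253. Zbp1, a sensor of nucleic acid, differed by -3.05 ± 0.26, and Irf7, a factor that amplifies the response, by -1.79 ± 0.157.

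The interferon-stimulated response element, searched as GAAANNGAA on both strands, was in 57.1% of the 21 promoter windows of this list and in 7.17% of all 12301 windows. It was in 6.96% of the windows of all genes called lower and in 6.75% of those called higher. Cxcl10 and Rsad2 are shown as the 2 members described with values in every library. The 250 bases before the start run from chr5:92348890-92349139, minus strand, for Cxcl10 and chr12:26456453-26456702, minus strand, for Rsad2, printed 5′ to 3′ on the strand of the gene. The match, in capitals, reads in the opposite orientation in Rsad2.
Cxcl10: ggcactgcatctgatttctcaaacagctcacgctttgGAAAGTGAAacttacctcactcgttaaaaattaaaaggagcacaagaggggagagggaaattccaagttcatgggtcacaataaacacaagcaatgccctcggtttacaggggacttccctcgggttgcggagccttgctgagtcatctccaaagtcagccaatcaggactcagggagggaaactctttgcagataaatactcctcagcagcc
Rsad2: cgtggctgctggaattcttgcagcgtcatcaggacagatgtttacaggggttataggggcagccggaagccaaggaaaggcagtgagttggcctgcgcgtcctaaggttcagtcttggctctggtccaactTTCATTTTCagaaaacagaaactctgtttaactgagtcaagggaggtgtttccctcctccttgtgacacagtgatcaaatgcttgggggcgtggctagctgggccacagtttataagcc

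Chemokines and inflammatory cytokines were lower in 15 of 18 with none higher, with a median of -1.47. Ccl2, which draws monocytes, was at 2.38, 2.40, 3.35 and 1.57 CPM with LX-A2003 and at 66.9, 35.5, 48.9 and 50.3 CPM with LX-A1656, and PBS livers had 0.120 to 0.852 CPM. Its difference was -4.35 ± 0.361 (adjusted p = 3.83e-13). Ccl5, which draws T cells, differed by -3.66 ± 0.302, and Nfkb2, a subunit and target of NF-kappa-B, by -1.89 ± 0.226.

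Targets of p53 were called lower in 19 of 24 and higher in 2, Fas and Ei24, with a median of -1.21, and in 14 with none higher without both replicates 1. Aen, a p53-induced nuclease, was at 37.9 to 46.4 CPM with LX-A2003, close to the PBS range of 38.0 to 45.5 CPM, and at 150, 91.4, 105 and 106 CPM with LX-A1656. Cdkn1a, the cell cycle inhibitor p21, chosen after its values were seen, was at 29.6, 18.2, 24.4 and 25.8 CPM with LX-A2003 and at 502, 166, 206 and 262 CPM with LX-A1656, with 8.77 to 14.5 CPM in PBS. It differed by -3.54 ± 0.395 (adjusted p = 1.52e-09). Btg2 differed by -2.39 ± 0.254. In the BCL2 family 6 of 12 were lower, with Bid (-1.41 ± 0.171), Bax (-1.22 ± 0.188) and Bak1 (-1.22 ± 0.258) among them, and Bmf, a pro-apoptotic member, was the 1 higher. Bmf was at 15.4, 12.8, 15.3 and 11.7 CPM with LX-A2003, at 3.39, 2.18, 1.06 and 2.21 CPM with LX-A1656 and at 2.39 to 10.5 CPM in PBS, a difference of 2.64 ± 0.417.

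Targets of the oxidative stress factor NRF2 were lower in 11 of 17 and higher in 1, with a median of -0.74. Srxn1, sulfiredoxin, was at 42.3, 32.5, 42.4 and 41.2 CPM with LX-A2003, at 336, 242, 264 and 305 CPM with LX-A1656 and at 17.7 to 23.4 CPM in PBS, and differed by -2.86 ± 0.179 (adjusted p = 4.19e-17). Gstm3 differed by -2.36 ± 0.297, and Nqo1, chosen after its values were seen, by -1.37 ± 0.213. The 1 higher member was Cat, catalase, at 1214 to 1751 CPM against 471 to 864 CPM. In the integrated stress response 11 of 17 were lower and 2, Atf5 and Chac1, higher, with a median of -0.97, Ddit3 (CHOP) by -1.76 ± 0.217. Matrix genes were lower in 10 of 21 and higher in 1, which was Fn1, a plasma fibronectin of hepatocytes, by 1.13 ± 0.185. Proteasome subunits were lower in 5 of 24 (Psma7, Psmb4, Psmd4, Psmd11 and Psmd12), where 18% of all tested genes were called lower. The count was 17 with library totals alone and 0 without both replicates 1.

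Markers of liver cell types also differed. Defining hepatocyte markers were present throughout, Ttr at 8134 to 8459 CPM with LX-A2003 and 3040 to 4930 CPM with LX-A1656, and 5 of 7 were called higher. Sinusoidal endothelial markers were higher in 7 of 12 with none lower, and with library totals alone in 6 with 1 lower. Their summed level was 289.6 to 323.1 CPM with LX-A2003, 185.6 to 206.4 CPM with LX-A1656 and 443.9 to 510 CPM in PBS. Among the endothelial markers not called, Cdh5 (-0.38), Pecam1 (-0.10) and Lyve1 (-0.03) had negative log2 differences. Stab1 (0.30) and Fcgr2b (0.43), also not called, had positive ones. Stab2, a scavenger receptor of these cells that takes up oligonucleotides, was at 15.3, 14.8, 9.08 and 10.6 CPM with LX-A2003, at 1.56, 2.64, 3.02 and 2.84 CPM with LX-A1656 and at 45.1 to 59.2 CPM in PBS. Both compounds lay below PBS without overlap, and they differed by 2.29 ± 0.225 (adjusted p = 2.65e-11).

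Among immune cells, markers of monocytes and recruited macrophages were lower with LX-A2003 in 8 of 9, and their sum was 132.1 to 140 CPM, against 224.1 to 355.2 CPM with LX-A1656 and 94.2 to 113.9 CPM in PBS. Itgam, the integrin CD11b, was at 1.52, 1.90, 0.921 and 1.29 CPM with LX-A2003, within or close to the PBS range of 1.08 to 2.19 CPM, and at 5.56, 4.00, 6.45 and 6.07 CPM with LX-A1656. Neutrophil markers were lower in 4 of 5, at sums of 5.432 to 9.528 and 18.38 to 22.16 CPM. T and NK cell markers were lower in 4 of 7, in none without both replicates 1. Kupffer cell markers were higher in 5 of 11 (Clec4f, Vsig4, Timd4, Folr2 and Cd163) and lower in 1 (with library totals alone, in 3 and 2). Clec4f was at 97.0 to 106 CPM against 58.1 to 62.8 CPM and 95 to 107 CPM in PBS, while Marco was the lower one. Of the 6 tested markers of B cells and plasma cells and the 2 of mast cells, 0 were called by edgeR, DESeq2 or limma-voom, and 0 had an unadjusted p below 0.05 in edgeR's test. Among the defining markers Klrb1c of NK cells and Mcpt4, Mcpt1 and Fcer1a of mast cells had no count in any of the 8 libraries. The interferon, chemokine and matrix lists had negative medians at 72 h, as had the markers of monocytes, neutrophils, and T and NK cells. The medians of Kupffer cell markers (0.439) and of B and plasma cell markers (0.38) were positive. Those of dendritic cell (0.017) and mast cell (-0.0372) markers were near 0. The part of the immune markers in the results of the 3 gene lists was not tested.

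A smaller set of genes, chosen after their values were seen, stood further from PBS with LX-A2003 than with LX-A1656. Cth, which makes cysteine and hydrogen sulfide, was at 1559, 1380, 1684 and 1499 CPM with LX-A2003, above every PBS library (572 to 720 CPM), and at 209, 540, 241 and 380 CPM with LX-A1656, below every one. It differed by 2.16 ± 0.241 (adjusted p = 7.73e-10). Prdx6, a peroxiredoxin, was at 1115, 1014, 1025 and 978 CPM with LX-A2003 and at 564, 531, 362 and 494 CPM with LX-A1656, where PBS had 462 to 564 CPM. Its difference was 1.08 ± 0.168. The forkhead factor Foxq1 was at 28.4 to 63.5 CPM with LX-A2003, 6.94 to 16.6 CPM with LX-A1656 and 5.60 to 9.26 CPM in PBS.

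On the lower side of the same set, Cyp2b10, the standard target of the xenobiotic receptor CAR, was at 6.93, 3.40, 3.35 and 3.59 CPM with LX-A2003, at 23.7, 13.1, 18.2 and 18.5 CPM with LX-A1656 and at 18.1 to 49.2 CPM in PBS. It differed by -2.10 ± 0.369 (adjusted p = 1.18e-05), and only LX-A2003 lay below PBS without overlap. Hes1, a Notch target, was at 9.40 to 15.6 CPM with LX-A2003, against 30.4 to 55.5 CPM with LX-A1656 and 32.8 to 40.5 CPM in PBS, and differed by -1.64 ± 0.244. Hamp, the iron hormone hepcidin, was at 934, 513, 769 and 810 CPM with LX-A2003, at 1174, 1495, 1983 and 1271 CPM with LX-A1656 and at 2827 to 5527 CPM in PBS, so that both compounds were below PBS and LX-A2003 was the lower (-0.97 ± 0.295, adjusted p = 0.00808). Clcn5, a chloride transporter of endosomes, was below every PBS library with LX-A2003 and above every one with LX-A1656, a difference of -2.07 ± 0.246.

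Differences also went with the genomic length of the gene, taken from GENCODE M21 (GRCm38) for 12119 tested genes. Of the 272 genes that span 300 kb or more, 106 (39%) were called higher with LX-A2003 and 14 (5.15%) lower, with a median difference of 0.60. Of the 2867 genes under 10 kb, 14% were higher and 21.8% lower, with a median of -0.10. Against PBS the medians of the longest class were -0.93 with LX-A2003 and -1.56 with LX-A1656, so that long genes were low with both compounds; those contrasts share the PBS libraries. The plot by genomic span shows the shares for each class.

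**Figure D4:**
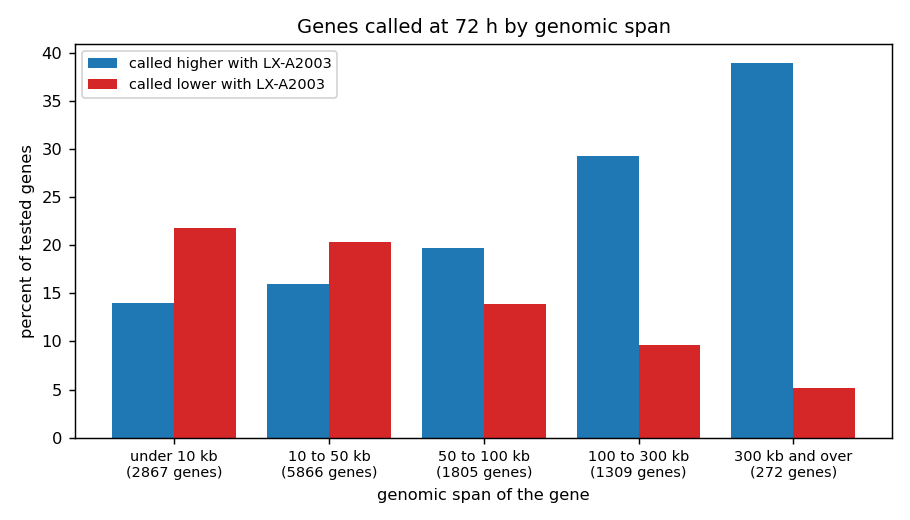
Percent of tested genes called higher (blue) or lower (red) with LX-A2003 at 72 h in 5 classes of genomic span, with the number of genes under each class. The share called higher runs from 14% under 10 kb to 39% at 300 kb and over, and the share called lower from 21.8% to 5.15%.

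Single long genes, chosen after their values were seen, show the range. Thrb, the thyroid hormone receptor beta (chromosome 14, 17660261 to 18038090, plus strand, 377.8 kb), was at 9.10, 11.5, 9.60 and 8.38 CPM with LX-A2003, at 1.65, 2.45, 2.04 and 2.13 CPM with LX-A1656 and at 32.5 to 43.0 CPM in PBS. It differed by 2.21 ± 0.278 (adjusted p = 1.28e-08). Gphn, gephyrin (chromosome 12, 78226379 to 78684772, plus strand, 458.4 kb), was at 25.7, 32.9, 19.9 and 26.6 CPM, then 4.52, 7.00, 6.86 and 6.07 CPM, and 82.2 to 99.7 CPM in PBS. In both genes the 3 groups did not overlap and LX-A1656 was the lowest.

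Fhit (chromosome 14, 1611.9 kb) was near 0 with both compounds, at 0.108, 0.1, 0.197 and 0.0921 CPM with LX-A2003 and at 0.434, 0, 0 and 0 CPM with LX-A1656, where PBS had 12.8 to 14.0 CPM. Its difference had a 95% interval from -1.65 to 2.23, and that of Immp2l (chromosome 12, 931.5 kb), as low in both groups, ran from -1.65 to 1.18. These intervals do not show that the compounds act alike on the 2 genes. Sdc2, a shorter gene for a heparan sulfate proteoglycan (chromosome 15, 114.2 kb), was at 222 to 253 CPM in PBS, at 12.1, 14.8, 10.0 and 13.2 CPM with LX-A2003 and at 3.04, 2.64, 2.53 and 2.45 CPM with LX-A1656, a difference of 2.23 ± 0.195 in the same order of groups as Thrb and Gphn. Nrg1, a ligand of ERBB receptors, was lower with LX-A2003, at 0.217 to 1.38 CPM with LX-A2003 and 11.1 to 14.4 CPM with LX-A1656.

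The contrast of the compounds depended on time. At 24 h 36 of the 12672 genes were called between them, 21 higher and 15 lower with LX-A2003, and at 168 h 4071, from separate libraries. Scarb1 was among the 36, higher with LX-A2003 by 1.12 ± 0.229 at 24 h (adjusted p = 0.0103 in edgeR's test). Its change from 24 to 72 h was not called (adjusted p = 0.0941), nor was its difference at 168 h (-0.38 ± 0.221). Stab2 (1.21 ± 0.201) and Cyp7b1 (1.37 ± 0.274) were also called higher at 24 h. A test of the difference itself called 2446 genes (19.3%) between 24 and 72 h and 3367 (26.6%) between 72 and 168 h. The median of the urea cycle and amino acid list was -0.15, 1.46 and -0.69 at 24, 72 and 168 h, that of the interferon list 0.01, -1.86 and 0.16, and that of sterol synthesis -0.15, -0.70 and 0.77. In the 20 tested urea cycle and amino acid genes the change of the difference was called for 18 from 24 to 72 h and for 19 from 72 to 168 h. The plot of list medians by time follows 10 of the lists.

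**Figure D5:**
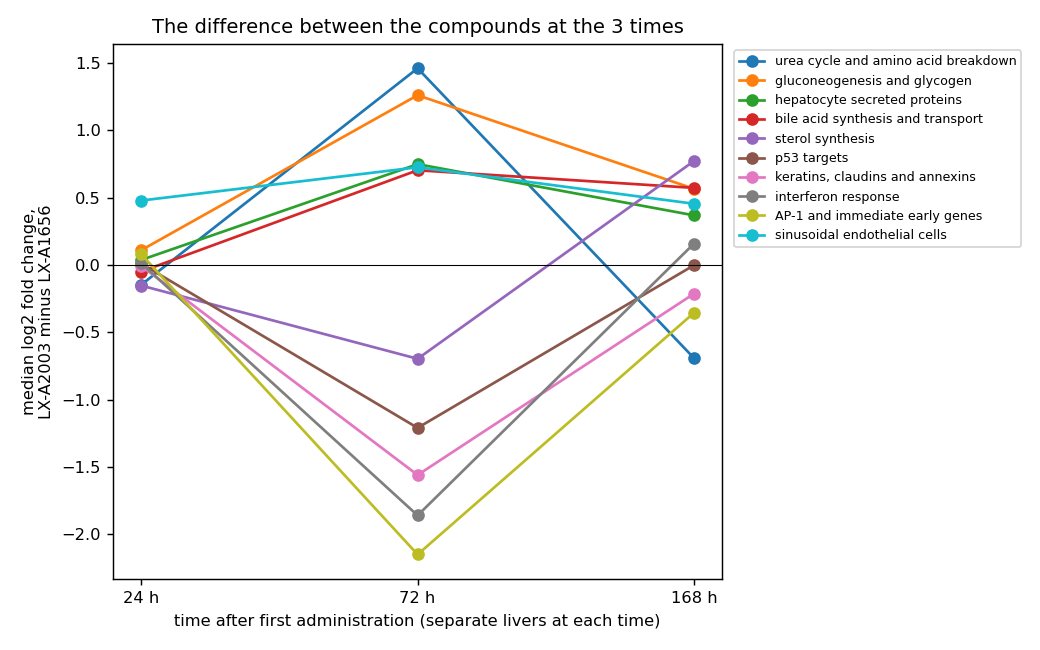
Median log2 fold change of LX-A2003 over LX-A1656 for 10 gene lists at 24, 72 and 168 h after the first administration, each time from separate libraries; lines join the medians of 1 list. All lie near 0 at 24 h apart from the sinusoidal endothelial markers at 0.48, they spread from 1.46 to -2.15 at 72 h, and sterol synthesis, the interferon response and the urea cycle list change sign by 168 h.

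Krt5 and Cldn4, at or near 0 with LX-A2003 at 72 h, were expressed with it at 168 h. Krt5, with no count at 72 h, was at 23.1 ± 1.77 CPM (SD, n = 4) with LX-A2003 and 30.0 ± 11.2 CPM with LX-A1656 at 168 h. Cldn4 was at 105 ± 14.6 CPM and 213 ± 53 CPM, and its difference between the compounds changed by 7.56 ± 0.553 from 72 to 168 h (adjusted p = 2.33e-14). Jun stood at 159 ± 16.6 CPM with LX-A2003 and 70.5 ± 13.4 CPM with LX-A1656 at 168 h, the reverse of the order at 72 h, a change of 4.39 ± 0.432.

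Several single metabolic genes crossed over in the same way, Sds and Upp2 having been chosen as extremes of that change. The list medians at 72 and 168 h kept their sign for gluconeogenesis and glycogen (1.26 and 0.565), bile acid genes (0.703 and 0.572) and xenobiotic metabolism (0.612 and 0.367). Those of the urea cycle and amino acid list (1.46 and -0.69) and the acute phase list (0.511 and -0.349) did not. Sds, serine dehydratase, was at 196, 144, 123 and 169 CPM with LX-A2003 and at 11.6, 40.2, 16.6 and 19.7 CPM with LX-A1656 at 72 h. At 168 h it was at 22.3 ± 10.1 CPM (SD, n = 4) with LX-A2003 and 354 ± 121 CPM with LX-A1656, and its difference changed by -6.83 ± 0.493 (adjusted p = 2.18e-14). G6pc went from 2.58 at 72 h to -2.81 at 168 h on the log2 scale, and Upp2, uridine phosphorylase, from 1.95 to -4.29. Cyp7b1 kept its direction, with 3.00 at 168 h, and its change from 72 to 168 h was not called (adjusted p = 0.0906).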

How the data were processed

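The authors deposited 1 table of raw counts per gene for all 48 libraries, made from mouse liver RNA with the Ion AmpliSeq Transcriptome Mouse kit, per the labels. Aligner, genome build and counting were not given in the sources used here. The 8 libraries held 10004333 to 16230022 counts. Genes were kept by edgeR's filterByExpr (edgeR 4.0.16, limma 3.58.1, R 4.3.3), library sizes scaled by TMM, and all 48 libraries entered 1 quasi-likelihood model of 12 group means, with no replicate block. The compounds at 72 h, and the change of their difference from 24 to 72 h and from 72 to 168 h, were contrasts of that fit, with Benjamini-Hochberg adjustment over all 12672 genes and calls below 0.05. The code was tested on simulated counts. Named genes were Scarb1, the 12 highest and 12 lowest non-overlapping calls whose mean reached 10 CPM in 1 group, up to 4 members of smallest p per list, and the 4 highest and 4 lowest interaction values. The lists, the genes and the comparison were chosen with earlier results of these data known. List members absent from the table were not analysed here. A few genes of the lists are not reported here. Places came from GENCODE M21, promoters from RefSeq (GRCm38.p6), which matched 9629 tested genes. DESeq2 1.42.0, limma-voom, other scalings and filters, left-out libraries and a replicate block were alternatives.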

Additional observations from a re-analysis of the deposited data

Results flagged for a closer look

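Within the 4 libraries of a group, 1 library lay far from the other 3 in 30 of the 362 groups of values tested by Dixon's rule, where chance gives about 1 in 20, and 14 of the 30 were a replicate 1. With LX-A1656, replicate 1 was the highest for Ypel4 (34.1 CPM, others 19.4 to 21.3), Cidec (708, others 295 to 353), Bak1 (88.4, others 40.4 to 46.7), Psmb4 (374, others 264 to 277), Psma7 (428, others 255 to 272), Slc25a21 (0.174, others 0.0789 to 0.0909) and Fhit (0.434, others 0), and the lowest for Cadps2 (1.04, others 2.21 to 2.37). With LX-A2003, replicate 1 was the highest for Ebp (536, others 378 to 390), Bak1 (33.3, others 18.7 to 20.7), Alas2 (480, others 373 to 386) and Cyp2b10 (6.93, others 3.35 to 3.59), and the lowest for Mlxipl (239, others 346 to 368) and Psmd11 (161, others 167 to 168).

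LX-A1656 replicate 2 was the highest for Ppara (174 CPM), Serpina3n (561), Tat (1726), Cyp8b1 (174) and Insig1 (515). LX-A2003 replicate 2 was the highest for Retnlg (2.70) and the lowest for Tnfrsf10b (1.5), Srxn1 (32.5) and Nqo1 (7.80). LX-A1656 replicate 3 was the lowest for Sqle (111) and Per2 (4.90) and the highest for Retnlg (8.74). LX-A2003 replicate 3 was the lowest for Fbp1 (809) and the highest for Plau (2.50) and Fhit (0.197), and replicate 4 the highest for Immp2l (0.368).

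The difference between the compounds itself differed between times, by the interaction contrast of the edgeR fit. From 24 to 72 h it changed by 5.58 for Cyp26a1, 3.79 for Pitx3, 3.66 for G6pc and 3.51 for Nnmt on the log2 scale, and by -7.70 for Cldn4 and -7.13 for Slpi. For Gm30692 (adjusted p = 0.00263) and Elovl7 (adjusted p = 5.7e-07) no change is given, since the LX-A1656 libraries at 24 h held no more than 3 counts in all, at 0 CPM for Gm30692 and 0 to 0.129 CPM for Elovl7. From 72 to 168 h it changed by 7.68 for Cib3, 7.56 for Cldn4, -6.83 for Sds, -6.71 for Nnmt, -6.68 for Cyp26a1 and -6.24 for Upp2. Krt5 (adjusted p = 1.35e-08) and R3hdml (adjusted p = 1.13e-10) had no count with LX-A2003 at 72 h.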

How the results depend on the processing

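With library totals alone, 1421 genes were higher and 3650 were lower at 72 h (28% higher, against 50% in the fit reported). For the change from 24 to 72 h, 789 were higher and 1742 lower (31.2% against 53.6% higher), and from 72 to 168 h 871 were lower (75.4% against 59.4% higher). The count of called genes at 72 h was 4541 with RLE factors, 4727 with DESeq2, 4617 with limma-voom, 4012 with no filter, 4233 with a stricter filter, 4565 with the 8 libraries alone and 4812 with the 16 libraries at 72 h. Leaving out 1 library at a time gave 3854 to 4535 called genes at 72 h, and 3447 without both replicates 1. With that setting included, the ranges at 72 h were 1811 to 2255 higher, 1636 to 2280 lower and 1640 to 2198 past a difference of 1. For the 2 changes over time that setting was not run. Leaving out 1 library, the ranges from 24 to 72 h were 2076 to 2588 called, 1134 to 1354 higher, 934 to 1234 lower and 1302 to 1727 past 1. From 72 to 168 h they were 2744 to 3469 called, 1654 to 2055 higher, 1090 to 1414 lower and 1824 to 2354 past 1.

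Whether replicate numbers pair the libraries is not settled. Same-numbered libraries of the compounds had correlations of 0.0735 to 0.336 in their deviations, and 3 of 4 correlated best with their own number. The highest, 0.336, was between the replicates 1. The rule for pairing asked for more than 0.1 in every same-numbered pair and was not met. With a replicate block 4317 genes were called, against 4554 without it. In the 8 libraries alone the block gave 5379, against 4565 without it. Of 3421 values of 181 named genes under these settings, 3347 kept their direction and call, 66 lost the call and 8 changed sign. The lost calls belong to 17 genes. Of these, 15 lost the call without both replicates 1, some of them under other settings too (Asgr1, Col1a1, Cyp8b1, Des, Gzma, Gzmb, Mcm7, Ncr1, Nkg7, Plk1, Psma7, Psmb4, Psmd11, Psmd4 and Sfpq), and Per2 and Slc25a21 lost it only with other libraries left out or, for Per2, with library totals alone. Those 8 belong to 3 genes that were not called: Fhit (-0.06, -0.11 and -0.12 without LX-A1656 replicate 2, 3 or 4, and -0.08 without LX-A2003 replicate 3; range over left-out libraries -0.12 to 3.70), Insig1 (0.17 and 0.02 without replicate 2 of LX-A1656 or LX-A2003; down to -0.16 without both replicates 1) and Immp2l (0.08 without LX-A1656 replicate 1, 0.21 without both replicates 1, and down to -0.80 without LX-A2003 replicate 4). The cause was not tested. Fhit and Immp2l were near 0 CPM, so depth limits their values.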

Other observations

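The lists of genes and markers not described above are given here with their calls at 72 h, where 18% of all tested genes were called in each direction. Lysosome and autophagy genes were called higher in 2 of 21 and lower in 7 (median log2 difference -0.11), and with library totals alone in 0 and 9 by the same edgeR test. Cell cycle and replication genes were lower in 3 of 21 and higher in none (median -0.39), with 7 lower with library totals alone and 1 without both replicates 1. The list of target and oligonucleotide handling had 3 of 17 higher and 2 lower (median 0.03), 2 and 4 with library totals alone, and 2 and 0 without both replicates 1. Stellate cell and myofibroblast markers had 1 of 11 higher and 2 lower (0 lower without both replicates 1), dendritic cell markers 2 of 7 lower (Itgax and Siglech), cholangiocyte markers 1 of 9 lower (Sox9), and red blood cell and platelet markers 1 of 6 higher (Alas2).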
